A study of Mus musculus with 35 samples.

Results

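The genes described here carry the symbols of proteins of the cytosolic ribosome, in mouse hearts 3 days after pressure overload. Members were chosen by symbol alone: Rpl or Rps followed by a number and nothing or an a, l or x, together with Rplp0, Rplp1, Rplp2 and Rpsa, with named pseudogenes left out. The rule gave 82 genes of the 27012 in the table, 50 for the large subunit and 32 for the small one, on 19 chromosomes. By annotation 79 of them are protein-coding and 3 are pseudogenes. A further gene that the rule names, Rpl10l, was not analysed here.

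RNA of the heart apex was sequenced in 35 libraries from mice of strain C57Bl/6/FVB, operated at 6 weeks of age and killed 3 days later. Transaortic constriction (TAC), which narrows the aorta and raises the load on the left ventricle, was set against sham surgery in 3 genotypes. IRS1KO mice carried alphaMHC-Cre and IRS1-flox (6 TAC, 6 sham), IRS2KO mice carried alphaMHC-Cre and IRS2-flox (6 TAC, 6 sham), and the controls labelled WT carried IRS2-flox (5 TAC, 6 sham). The alphaMHC promoter drives Cre in cardiomyocytes, so the other cells of the apex keep the floxed gene. Since the WT genotype names no Cre, the Cre transgene and the deletion cannot be told apart in a comparison of knockout with WT. IRS1KO mice carry another floxed gene than WT and IRS2KO mice, so there the floxed line and the deletion cannot be told apart either.

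Ribosomal proteins assemble with ribosomal RNA into the large and the small subunit, and cells under growth stimuli, cardiomyocytes in hypertrophy among them, raise ribosome production. Their mRNAs are known for a terminal oligopyrimidine (TOP) motif, a C at the cap followed by a run of C and T, through which mTORC1 signalling controls their translation. IRS1 and IRS2 are adaptors that link the insulin and IGF-1 receptors to PI3K, Akt and mTORC1. Most members exist as 1 coding gene, but a few have paralogs: Rpl3l is a striated-muscle copy of Rpl3, whose protein reaches towards the peptidyl transferase centre of the large subunit.

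Each library held 11707111 to 14609467 reads. The 3 genes under the filter on low values (a mean of 10 normalized counts over all libraries) were Rpl24 at a mean of 3.30, Rpl32l at 3.75 and Rpl39l at 1.41, which left 79 tested members, 47 large and 32 small. Of the 82, 64 had means over 1000. Per length (RPKM over the transcript), the highest mean levels were those of the stalk protein gene Rplp1 at 681, Rps29 at 563 and Rpl41 at 542, and the lowest of a tested member was that of Rpl13a at 6.86. Named pseudogenes exist for 60 members, up to 24 for a single one, and the labels do not say how reads that map to several places were counted, so the levels of these members are uncertain. Irs1 was at 0, 20.4 and 80.3 normalized counts (lowest, median, highest) in IRS1KO TAC hearts and 0, 28.2 and 43.8 in IRS1KO sham hearts, against 135, 203 and 221 in WT TAC and 172, 237 and 310 in WT sham hearts, with no overlap. Irs2 overlapped between genotypes, at 78.6, 114 and 196 in IRS2KO TAC hearts and 98.1, 124 and 138 in IRS2KO sham hearts, against 130, 252 and 303 in WT TAC and 93.0, 163 and 564 in WT sham hearts.

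The 30 bases around the annotated start are shown for members on which the results turn: Rpl3l, which fell after TAC, Rpl13a, Rps26, Rpl39 and Rps12, which were among the 8 that rose most in IRS1KO hearts, Rps27 and Rps13, which were not called in any genotype, and Rps7, which was lower in IRS1KO hearts. They run from 15 bases before the start to 15 bases from it (RefSeq, GRCm38.p6), with the longest run of C and T in capitals.
Rpl3l (chr17:24727811-24727840, plus strand): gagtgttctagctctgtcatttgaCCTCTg
Rpl13a (chr7:45128731-45128760, minus strand): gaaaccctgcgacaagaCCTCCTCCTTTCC
Rps26 (chr10:128626492-128626521, minus strand): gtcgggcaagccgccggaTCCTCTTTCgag
Rpl39 (chrX:37085208-37085237, minus strand): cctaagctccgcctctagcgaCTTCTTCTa
Rps12 (chr10:23787195-23787224, minus strand): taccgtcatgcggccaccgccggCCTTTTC
Rps27 (chr3:90213634-90213663, minus strand): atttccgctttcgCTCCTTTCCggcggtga
Rps13 (chr7:116334176-116334205, minus strand): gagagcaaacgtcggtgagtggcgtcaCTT
Rps7 (chr12:28635939-28635968, minus strand): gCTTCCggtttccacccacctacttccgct
The RefSeq start lay 0 to 16 bases from the end of the gene in the annotation used for the levels for Rpl3l, Rpl13a, Rps27, Rps13 and Rps7, but 241 bases from it for Rps26, 180 for Rpl39 and 66 for Rps12. Rpl3 has no entry among the promoters used.

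Promoters could be matched by symbol for 60 of the 82 members, 57 of them tested. A pyrimidine run of at least 8 bases in the 30 bases stood in 24 of these 57 (42.1%), against 1245 of all 10174 tested genes with a promoter (12.2%). The median longest run was 7 bases in the members and 4 in all tested genes, and a C stood at the annotated start itself in 19 members (33.3%), against 1513 of all tested genes with a promoter (14.9%). Rpl3l, with a run of 5, and Rps7, also with 5, had shorter runs than the member median, while Rps27, which was not called after TAC, had a run of 9 as Rps26 did. A shorter run than theirs, of 3, stood in Rpl10, which rose in all 3 genotypes, and in Rps13, which was not called in any. The runs of Rpl13a, Rps12 and Rps13 reach the last of the 30 bases, so they may be longer than shown. The letters CTCTTTC, searched on both strands of the 300-base promoters, were found in 28.1% of the tested members and in 7.19% of all tested genes, CTTTCC in 45.6% and 26.3%, and CTTTTC in 26.3% and 19.0%. CTCTTTC ends in the letters with which CTTTCC begins, so 1 stretch can hold both.

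The first comparison asked how the genes of the ribosome respond to 3 days of TAC in each genotype. Nearly the whole family rose by a similar and moderate amount, and a single member, Rpl3l, fell. In each of the 3 genotypes 70 of the 79 tested members were higher after TAC, 1 was lower and 8 were not called (limma on log2(normalized count + 1), Benjamini-Hochberg adjusted p under 0.05 over 13695 genes). Across all tested genes 32.4% were called higher in IRS1KO, 31.3% in IRS2KO and 28.3% in WT hearts, and 31.7%, 31.1% and 26.6% were called lower in these genotypes. The median log2 fold change of the members was 0.49 in IRS1KO, 0.45 in IRS2KO and 0.42 in WT hearts, or 1.40-, 1.37- and 1.34-fold, while the median of all tested genes was -0.01 in each.

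Between their quartiles the members lay in a narrow band, from 0.37 to 0.59 on the log2 scale in IRS1KO, 0.36 to 0.57 in IRS2KO and 0.33 to 0.55 in WT hearts. Large-subunit genes were called higher for 44 of 47 in IRS1KO, 45 in IRS2KO and 44 in WT hearts (median log2 fold changes 0.50, 0.48 and 0.46). Small-subunit genes were called higher for 26 of 32 in IRS1KO, 25 in IRS2KO and 26 in WT hearts (medians 0.43, 0.41 and 0.38). The same 69 members were higher in all 3 genotypes, and Rpl3l was lower in all 3. The libraries of TAC hearts all lay above those of sham hearts for 38 of the 79 in IRS1KO, 19 in IRS2KO and 34 in WT hearts, against 20.5%, 15.7% and 17.2% of all tested genes. For Rpl3l alone among the members they all lay below, in each genotype, against 16.7%, 13.6% and 14.3% of all tested genes.

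**Figure D1:**
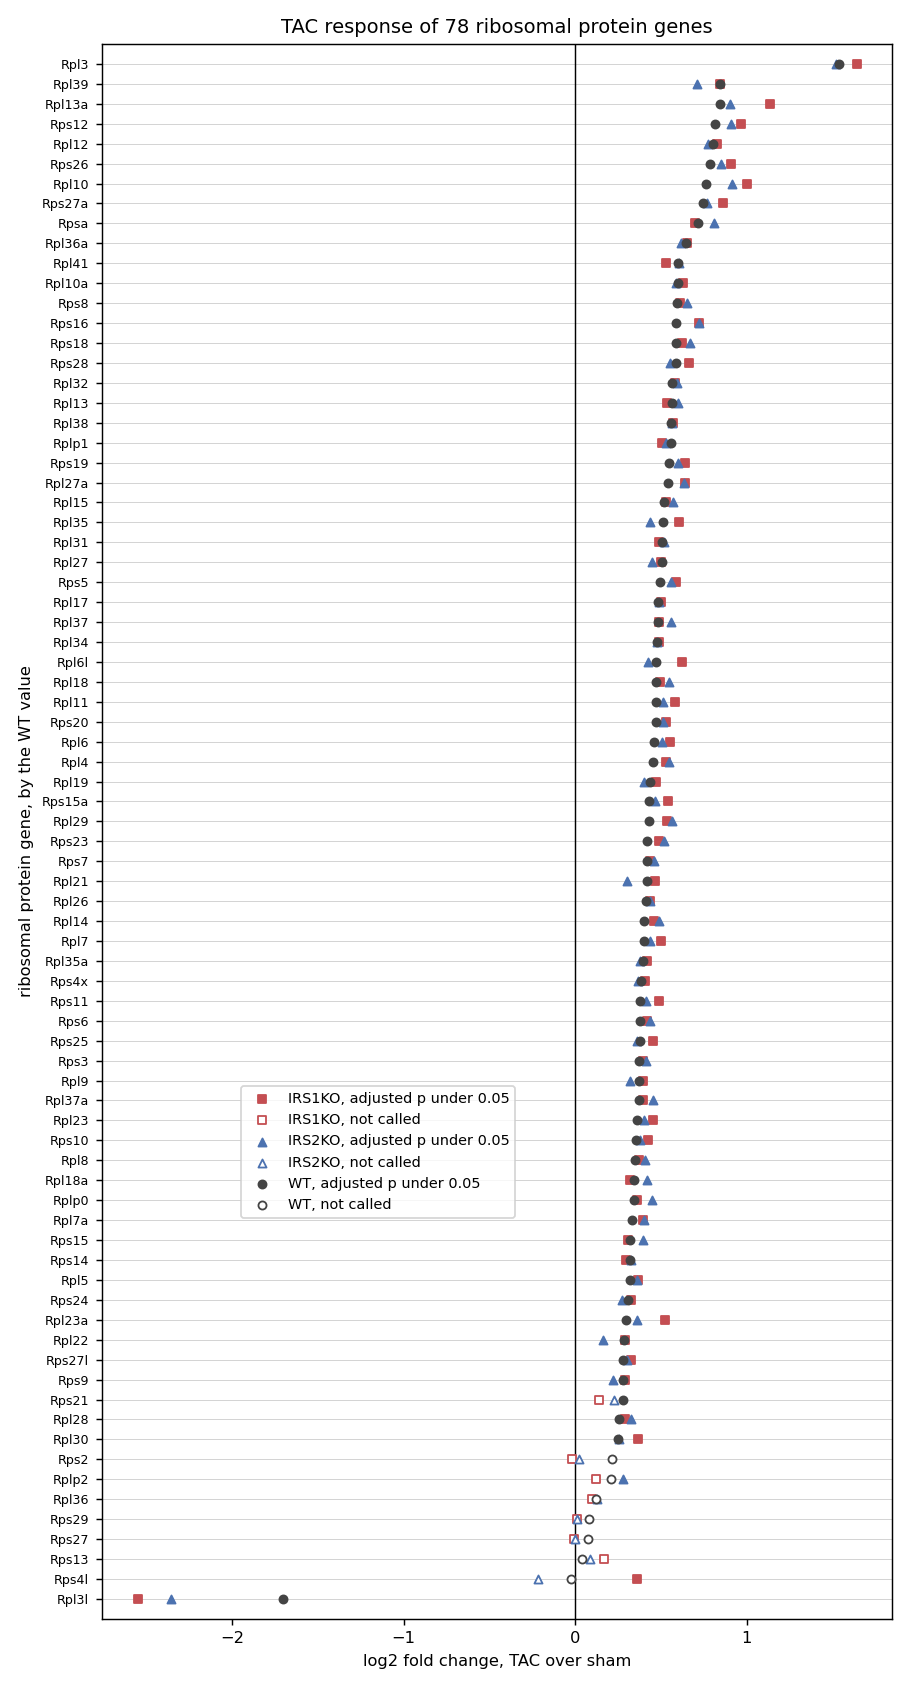
Log2 fold change of TAC over sham hearts for 78 of the 79 tested members, ordered by the WT value, with 1 marker per genotype and open markers for members that were not called. Rpl3l stands alone at the bottom, between -2.55 and -1.71, and Rpl3 alone at the top, between 1.52 and 1.64.

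The fold changes of the other 77 tested members were alike between genotypes. Their Pearson r across genes was 0.90 between IRS1KO and IRS2KO, 0.92 between IRS1KO and WT and 0.95 between IRS2KO and WT, as a description over genes, which are not independent. Differences between genotypes had an SD of 0.07 to 0.10 over the genes on the log2 scale. Spearman's rho of the fold change with the level per length was -0.25 in IRS1KO, -0.11 in IRS2KO and -0.14 in WT hearts. With coding length it was between 0.05 and 0.14, and with the number of named pseudogenes between 0.05 and 0.09.

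With the same total per library, the median log2 fold change of all tested genes was 0.30 (IRS1KO), 0.33 (IRS2KO) and 0.24 (WT). A share of all reads scales libraries in the same way, and the share that the members held rose after TAC. This share was 1.70% ± 0.234 in IRS1KO TAC and 0.995% ± 0.120 in IRS1KO sham hearts (SD, n = 6 each), with ranges of 1.44 to 1.96 and 0.901 to 1.22. In IRS2KO hearts it was 1.64% ± 0.383 after TAC and 0.928% ± 0.0689 after sham surgery (SD, n = 6 each), with ranges of 1.10 to 1.94 and 0.866 to 1.06. WT TAC hearts had 1.74, 1.09, 1.63, 1.71 and 1.52%, and WT sham hearts 0.907 to 1.04%. The share of reads from the mitochondrial genome moved the other way, at 19.5, 21.1 and 23.4% in IRS1KO, IRS2KO and WT TAC hearts, against 28.6, 30.4 and 29.9% in their sham hearts. Of the reads outside it, the members held 2.10% ± 0.220 in IRS1KO TAC and 1.39% ± 0.150 in IRS1KO sham hearts, 2.06% ± 0.387 in IRS2KO TAC and 1.33% ± 0.0939 in IRS2KO sham hearts (SD, n = 6 each), and 2.00% ± 0.310 in WT TAC and 1.36% ± 0.0663 in WT sham hearts (SD, n = 5 and 6). By either share TAC and sham libraries did not overlap in any genotype, though 3 TAC libraries lay close to the sham range.

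**Figure D2:**
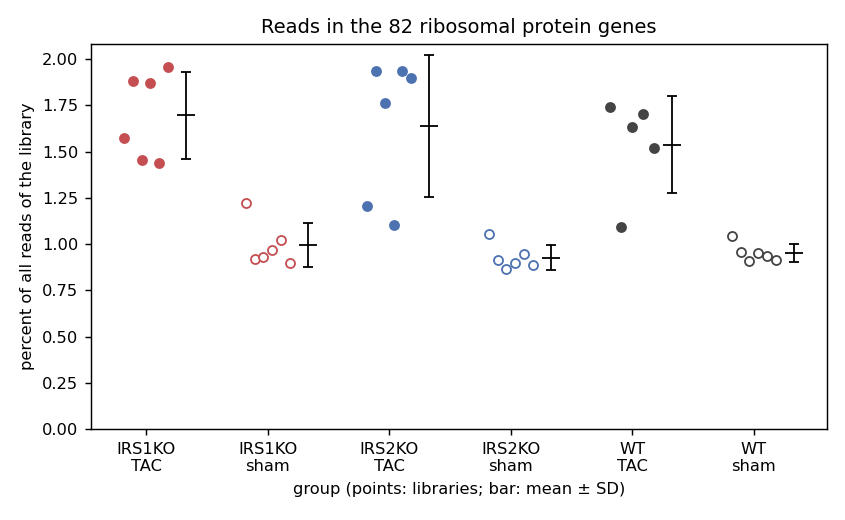
Percent of all reads of each library that fell in the 82 members, by group, with the mean and SD. In each genotype the TAC libraries lie above the sham libraries, and 1 WT and 2 IRS2KO TAC libraries lie between 1.09 and 1.21%.

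The libraries that stood apart were WT TAC replicate 2 at 1.09% (95% Wilson interval 1.089 to 1.100, counting error only), IRS2KO TAC replicate 1 at 1.21% (1.200 to 1.212) and IRS2KO TAC replicate 4 at 1.10% (1.097 to 1.108). Their summed levels of 8 cardiomyocyte markers, 909357, 800797 and 919532 normalized counts, were above those of all other TAC libraries of their groups, and their sums of 7 macrophage markers, 2874, 3540 and 2359, were below. Without these 3 libraries, 70 members were higher in IRS1KO, 71 in IRS2KO and 71 in WT hearts, and Rpl3l was still the only one lower in each.

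Markers of other cell types moved with the surgery. All 7 macrophage markers were higher after TAC in each genotype, with sums (lowest, median, highest) of 2979, 5350 and 7329 in IRS1KO TAC against 1160, 1359 and 1607 in IRS1KO sham hearts, of 2359, 5760 and 7122 in IRS2KO TAC against 1201, 1326 and 1658 in IRS2KO sham hearts, and of 2874, 5095 and 7951 in WT TAC against 1141, 1266 and 1420 in WT sham hearts. All 4 markers of cycling cells were higher too, with median sums of 1997, 2068 and 1457 in IRS1KO, IRS2KO and WT TAC hearts, against 75.7, 60.6 and 51.2 in the sham hearts of the same genotypes. Of 8 cardiomyocyte markers, 6 were lower in IRS1KO, 7 in IRS2KO, where Actc1 was higher, and 7 in WT hearts, with median sums of 512100, 548102 and 632883 after TAC, against 995080, 1005588 and 1024471 after sham surgery. Of the other lists, fibroblast markers were higher for 3 of 6 in IRS1KO, 3 in IRS2KO and 4 in WT hearts, with Dcn lower in IRS1KO (-0.36) and IRS2KO hearts (-0.53), endothelial markers lower for 5, 5 and 4 of 5, and erythroid markers lower for 3 of 3 in each. Of 2 tested skeletal muscle markers, Tnnt3 was higher in all 3 genotypes (3.58, 2.71 and 2.45) and Tnni2 lower in WT hearts, and the list had median sums of 82.1, 84.9 and 30.7 in IRS1KO, IRS2KO and WT TAC hearts, against 26.0, 20.3 and 22.6 in their sham hearts. The skeletal myosin genes Myh1 and Myh2 of that list had group means of at most 0.788 and 0.372 normalized counts. Of 2 tested atrial markers, Nppa was higher in each genotype. Of 2 tested neutrophil markers, Csf3r was higher in each genotype and S100a9 in WT hearts. Of 2 tested smooth muscle markers, Myh11 was lower in each genotype and Acta2 higher in IRS2KO and WT hearts. T and B cell markers summed to at most 30.9 and 23.7 normalized counts in any library. The part of these cell types in the members' response was not tested, and in bulk tissue fewer cells of a type and less RNA per cell cannot be told apart.

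Of the 8 members with the largest rise, 7 were shared by all 3 genotypes: Rpl3, Rpl10, Rpl12, Rpl13a, Rps12, Rps26 and Rps27a. Rpl10, which joins the large subunit late in its maturation, had 2649, 3349 and 3748 normalized counts (lowest, median, highest) in IRS1KO TAC and 1447, 1570 and 1825 in IRS1KO sham hearts. In WT TAC hearts it had 3171, 2113, 2958, 3175 and 2752, against 1474 to 1797 in WT sham hearts, so the groups did not overlap in either genotype. Its log2 fold change was 1.00 ± 0.13 (SE; adjusted p = 6.4e-08, limma) in IRS1KO, 0.92 in IRS2KO and 0.76 in WT hearts. Rps26, a small-subunit protein beside the mRNA exit channel, had 1765, 1969 and 2204 in IRS1KO TAC against 931, 993 and 1253 in IRS1KO sham hearts, and 2029, 1229, 1914, 1964 and 1788 in WT TAC against 931 to 1106 in WT sham hearts. Again no TAC library fell into the sham range, and the log2 fold changes were 0.91, 0.85 and 0.79 in IRS1KO, IRS2KO and WT hearts.

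Rpl39, a short protein that lines the exit tunnel, had 1066, 1254 and 1439 normalized counts in IRS1KO TAC against 580, 672 and 892 in IRS1KO sham hearts, and 1341, 886, 1422, 1395 and 1157 in WT TAC against 595 to 850 in WT sham hearts. Rps12 had 1335, 1797 and 2011 in IRS1KO TAC against 746, 861 and 1066 in IRS1KO sham hearts, and its log2 fold changes were 0.97, 0.91 and 0.82 in IRS1KO, IRS2KO and WT hearts. Rpl13a rose by 1.13 ± 0.20, 0.90 ± 0.20 and 0.85 ± 0.21 on the log2 scale (SE), from a low level: it had 99.1, 125 and 164 in IRS1KO TAC against 45.2, 53.9 and 78.6 in IRS1KO sham hearts, and in WT TAC replicate 2 its 53.8 lay within the WT sham range of 51.5 to 59.5. Rps12 has 24 named pseudogenes, so its level is among the uncertain ones. How reads that map to several places were counted is not stated, and whether the low count of Rpl13a reflects its level was not tested. Rpl12, at the base of the stalk, rose by 0.83, 0.78 and 0.81, and Rps27a, made as a fusion with ubiquitin, by 0.86, 0.77 and 0.74 in IRS1KO, IRS2KO and WT hearts.

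Among members with well-known further roles, Rpsa, also described as a laminin receptor, had 6817, 8026 and 8372 normalized counts in IRS1KO TAC against 4192, 4697 and 5585 in IRS1KO sham hearts, and rose by 0.70, 0.81 and 0.72 on the log2 scale in IRS1KO, IRS2KO and WT hearts. Rpl5 and Rpl11, which bind 5S RNA and can hold Mdm2, rose by 0.36 and 0.58 in IRS1KO, 0.36 and 0.51 in IRS2KO and 0.32 and 0.47 in WT hearts. Rpl22, an RNA-binding large-subunit protein, rose by 0.29, 0.16 and 0.29, and its value in IRS2KO hearts, the smallest that was called in that genotype, was not called without TAC replicate 2 or 5 or sham replicate 2 or 3 (0.13 to 0.15). The substrate of the S6 kinases, Rps6, rose by 0.42, 0.44 and 0.38. Rps19, whose human gene is the one most often mutated in Diamond-Blackfan anaemia, rose by 0.64, 0.60 and 0.55.

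Of the acidic stalk, Rplp0 rose by 0.36, 0.45 and 0.34 and Rplp1 by 0.51, 0.53 and 0.56 in IRS1KO, IRS2KO and WT hearts. The third stalk gene, Rplp2, was called only in IRS2KO hearts at 0.28, with 0.12 in IRS1KO and 0.21 in WT hearts, and it was called in WT hearts too without WT TAC replicate 2 or WT sham replicate 1 (0.27 in each). A difference of its response between genotypes did not pass. Among genes named as paralogs besides Rpl3l, Rps4x (the X-linked copy) rose by 0.41, 0.37 and 0.39, Rps27l by 0.33, 0.30 and 0.28, and Rpl6l, annotated as a pseudogene, by 0.62, 0.42 and 0.47. Rps4l, also annotated as a pseudogene, had log2 fold changes of 0.36, -0.22 and -0.02, of which only that in IRS1KO hearts was called (adjusted p = 0.029, limma). That call was lost without IRS1KO TAC replicate 1 or 6 or IRS1KO sham replicate 2 or 6 (0.28 to 0.35), and the one of Rps27l without IRS2KO TAC replicate 5 (0.24) and, in WT hearts, without TAC replicate 1 or 5 or sham replicate 3, 4 or 6 (0.23 to 0.27).

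Among the members that were not called in any genotype were Rps2, Rps13, Rps27 and Rps29 of the small subunit and Rpl36 of the large. Rps29, a zinc-binding protein of the small-subunit head, had 2486, 2739 and 2952 normalized counts in IRS1KO TAC against 2422, 2555 and 3392 in IRS1KO sham hearts, and 3282, 2758, 2649, 3411 and 2813 in WT TAC against 2538 to 3191 in WT sham hearts. Its groups overlapped in each genotype, with log2 fold changes of 0.01, 0.01 and 0.08. Rps27 had changes of -0.00, -0.00 and 0.07, and Rps2 of -0.02, 0.02 and 0.22 in IRS1KO, IRS2KO and WT hearts, and the signs of these values near 0 moved with the scaling. Scaling each library to the same total moved the median of all tested genes to 0.30, 0.33 and 0.24, and then 77 members were higher and 1 lower in each genotype. Relative to that median the members' median stood at 0.50, 0.46 and 0.44, against 0.50, 0.46 and 0.43 with the deposited scaling. Of all genes called, the higher ones made up 76.8% in IRS1KO, 79.7% in IRS2KO and 79.7% in WT hearts with the same total per library, against 50.6, 50.2 and 51.6% with the deposited scaling. With the same total outside the mitochondrial genome those shares were 63.7, 66.1 and 67.7%.

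Between Rpl3 and Rpl3l the order of the normalized counts turned over after TAC. Rpl3l lies at chr17:24727820-24736143 (plus strand) and Rpl3 at chr15:80077791-80091868 (minus strand) in GRCm38. Rpl3l had 257, 434 and 1147 normalized counts (lowest, median, highest) in IRS1KO TAC hearts, against 2462, 2855 and 3630 in IRS1KO sham hearts. In IRS2KO TAC hearts it had 241, 536 and 2094, against 2945, 3161 and 3445 in IRS2KO sham hearts. In WT TAC hearts it had 836, 2149, 638, 1262 and 1009, against 3261, 3523 and 3810 in WT sham hearts. No TAC library reached the sham range of its genotype, and the highest TAC values, 2149 and 2094, came from WT TAC replicate 2 and IRS2KO TAC replicate 4.

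Rpl3 moved the other way. It had 3926, 4432 and 5319 normalized counts in IRS1KO TAC against 1213, 1446 and 1736 in IRS1KO sham hearts, and 2651, 4826 and 6158 in IRS2KO TAC against 1282, 1537 and 1798 in IRS2KO sham hearts. WT TAC hearts had 5300, 2330, 4059, 4862 and 3800, against 1232, 1347 and 1470 in WT sham hearts. Here too the groups did not overlap, and the lowest TAC values came from the libraries with the highest Rpl3l.

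**Figure D3:**
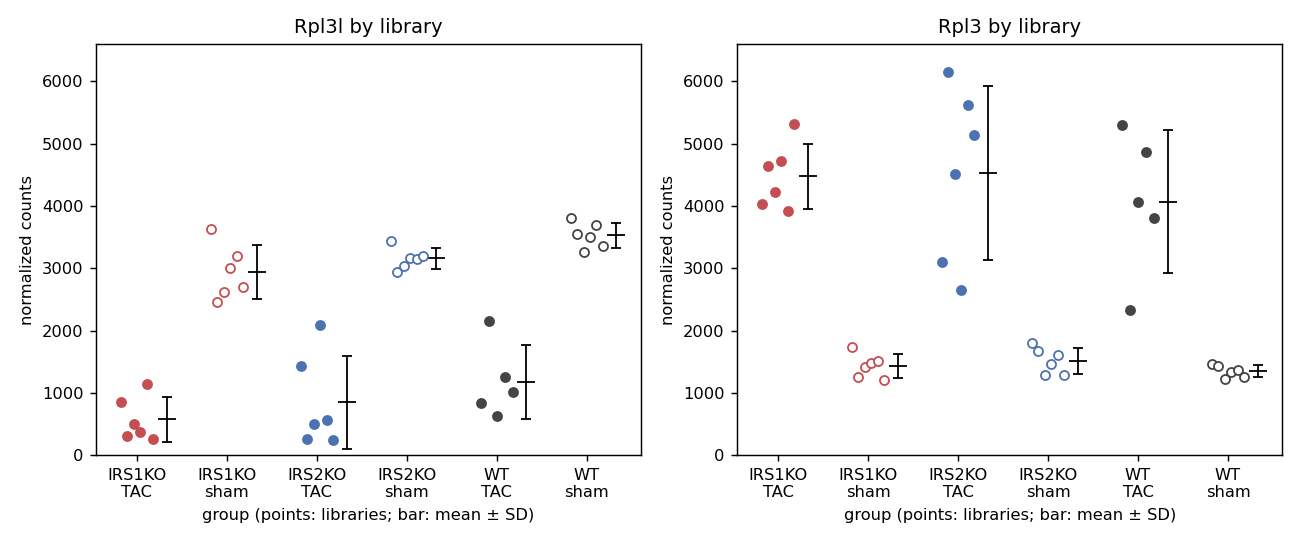
Normalized counts of Rpl3l (left) and Rpl3 (right) in each library by group, with the mean and SD. In sham hearts Rpl3l lies above 2400 and Rpl3 below 1800, and in every TAC library Rpl3l lies below and Rpl3 above its sham range.

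The log2 fold change of Rpl3l was -2.55 ± 0.37 in IRS1KO (SE; adjusted p = 7.5e-07), -2.36 ± 0.37 in IRS2KO (adjusted p = 3e-06) and -1.71 ± 0.39 in WT hearts (adjusted p = 0.00056, limma). By the group means Rpl3l was 5.11, 3.72 and 2.99 times lower after TAC. For Rpl3 the log2 fold change was 1.64 ± 0.17 in IRS1KO, 1.52 ± 0.17 in IRS2KO and 1.54 ± 0.17 in WT hearts (adjusted p = 1.2e-09, 6.8e-09 and 2.1e-08), a 3.12-, 2.98- and 3.02-fold rise of the group means. Without the 3 libraries that stood apart, the value of Rpl3l was -3.11 in IRS2KO and -1.95 in WT hearts, and that of Rpl3 was 1.82 and 1.73.

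The summed counts of the pair differed less between TAC and sham hearts than either gene did. They were 5052 ± 290 in IRS1KO TAC and 4374 ± 609 in IRS1KO sham hearts, 5380 ± 767 in IRS2KO TAC and 4677 ± 315 in IRS2KO sham hearts (SD, n = 6 each), and 5249 ± 813 in WT TAC and 4876 ± 290 in WT sham hearts (SD, n = 5 and 6). Per length, over transcripts of 1375 bases for Rpl3l and 1351 for Rpl3, the mean levels were 68.9 RPKM of Rpl3l and 252 of Rpl3 in WT TAC hearts, against 177 and 68.9 in WT sham hearts. Over all annotated exons of each gene, 1643 bases for Rpl3l and 3175 for Rpl3, they were 57.6 and 107 RPKM in WT TAC hearts, against 148 and 29.3 in WT sham hearts. Whether Rpl3 after TAC stood above or below Rpl3l in sham hearts thus depended on the length used.

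As a share of the reads of the pair, Rpl3l took 11.5% ± 7.11 in IRS1KO TAC and 67.1% ± 1.45 in IRS1KO sham hearts, and 17.2% ± 16.6 in IRS2KO TAC and 67.6% ± 2.90 in IRS2KO sham hearts (SD, n = 6 each). In WT TAC hearts it took 13.6, 48.0, 13.6, 20.6 and 21.0%, against 71.2 to 73.0% in WT sham hearts. The 48.0% belonged to replicate 2 (95% Wilson interval 46.6 to 49.4, counting error only), and the highest share among IRS2KO TAC libraries, 44.1% (42.7 to 45.6), to replicate 4. Rpl3l thus held the larger part of the reads of the pair in every sham library and the smaller part in every TAC library. Per length the same held over the transcripts, but over all annotated exons Rpl3l took 64.1% in WT TAC replicate 2 and 60.4% in IRS2KO TAC replicate 4, the larger part in these 2 libraries.

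**Figure D4:**
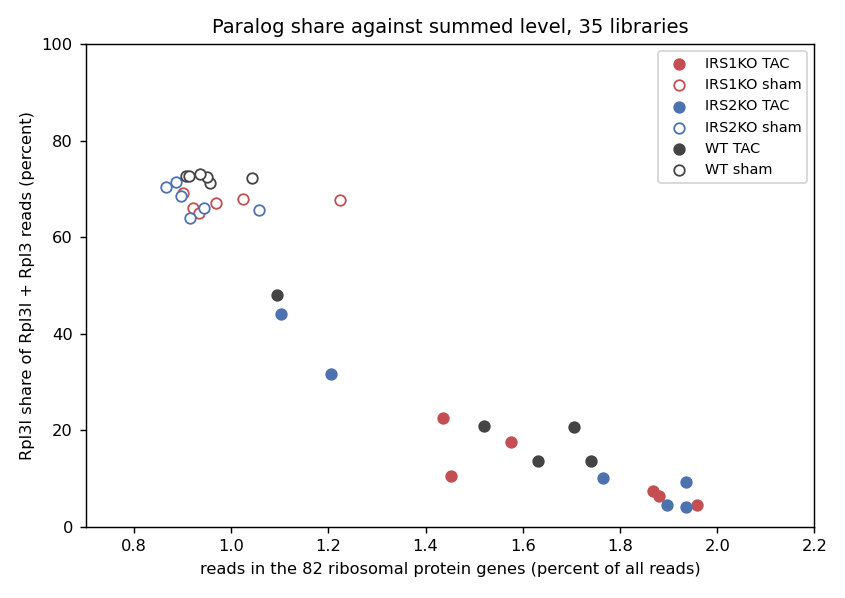
Share of Rpl3l in the reads of Rpl3l and Rpl3 (percent) against the share of all reads in the 82 members (percent), 1 point per library, filled for TAC and open for sham hearts. Sham libraries lie above 60% at the upper left, TAC libraries below 50% to the right, and the 3 TAC libraries with the lowest share of reads in the members have Rpl3l shares of 31.6 to 48.0%.

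The log2 ratio of Rpl3l to Rpl3 was tested over libraries with an exact two-sided permutation test, adjusted over 9 comparisons. It was -3.17 ± 1.00 in IRS1KO TAC and 1.03 ± 0.09 in IRS1KO sham hearts (SD, n = 6 each), an 18.3-fold lower ratio (exact p = 0.0022, adjusted 0.0065). In IRS2KO TAC hearts it was -2.82 ± 1.73, against 1.07 ± 0.19 in IRS2KO sham hearts (SD, n = 6 each), a 14.8-fold lower ratio (exact p = 0.0022, adjusted 0.0065). WT TAC hearts had -1.86 ± 1.04, against 1.39 ± 0.05 in WT sham hearts (SD, n = 5 and 6), a 9.50-fold lower ratio (exact p = 0.0043, adjusted 0.0078). Each of these p-values is the smallest that its group sizes allow.

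Genotype was also compared through this ratio. In sham hearts the ratio was 1.28-fold lower in IRS1KO than in WT (difference -0.36 ± 0.04, SE, 6 against 6 libraries without overlap, exact permutation p = 0.0022, adjusted 0.0065) and 1.25-fold lower in IRS2KO than in WT (-0.32 ± 0.08, with overlap, exact permutation p = 0.0043, adjusted 0.0078). The 2 comparisons share the WT sham libraries. After TAC the differences were -1.30 ± 0.62 for IRS1KO (exact permutation p = 0.069, adjusted 0.10) and -0.96 ± 0.85 for IRS2KO against WT (exact permutation p = 0.30, adjusted 0.39), which did not pass. The first had an unadjusted p of 0.048 without IRS1KO TAC replicate 1 and of 0.032 without replicate 5. The second was -1.57 (exact permutation p = 0.029) without the 3 libraries that stood apart. Those 3 were left out after the data were seen, and they held the highest Rpl3l shares of their TAC groups. That p-value therefore cannot decide whether the ratio differed between IRS2KO and WT TAC hearts. IRS1KO and IRS2KO hearts differed by -0.04 ± 0.09 in sham and -0.35 ± 0.82 in TAC hearts (exact permutation p = 0.66 and 0.68).

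In the order of mean levels, Rpl3l was lowest in IRS1KO TAC, followed by IRS2KO TAC, WT TAC, IRS1KO sham, IRS2KO sham and WT sham hearts. The step from WT TAC to the sham groups was the one that no library crossed. Between genotypes Rpl3l differed by -1.12 ± 0.39 on the log2 scale in IRS1KO against WT TAC hearts (SE; adjusted p = 0.093, limma) and by -0.81 ± 0.39 in IRS2KO against WT TAC hearts (adjusted p = 0.72), neither of which passed. The first passed without WT TAC replicate 3 (-1.31), without IRS1KO TAC replicate 5 (-1.36) and with library weights (-1.34). The second passed without the 3 libraries that stood apart (-1.31). That fit left out the highest Rpl3l values of both groups after they were seen, so its call cannot decide whether the groups differ. In sham hearts the differences were -0.27 in IRS1KO and -0.16 in IRS2KO against WT (adjusted p = 0.80 and 1.0, limma), and the first passed when only these 2 groups were fitted (adjusted p = 0.032).

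Over the 35 libraries the genes whose log2 levels followed Rpl3l most closely were Hrc, a calcium-binding protein of the sarcoplasmic reticulum, with a Pearson r of 0.995, Etfa (0.991), Mlycd (0.990), Cpt2 (0.990) and Pfkm (0.990). At the other end stood Actn4 (-0.987), Tln1 (-0.985), Flna (-0.984), Pdcd6ip (-0.979) and Tgfb1i1 (-0.979). Rpl3 itself had an r of -0.92. With the group means taken out, Hrc still came first at 0.98, followed by Dcaf8, Dhrs7c, Acsl1 and Fitm1 at 0.97, while Flna and Actn4 had -0.95 and Rpl3 had -0.69. All points share the libraries and their scaling.

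A last comparison asked whether the family differed between genotypes, for which the deletion is not the only difference. Few members differed between genotypes, and for none did a difference in the response to TAC pass the test. In sham hearts 3 members were lower in IRS1KO than in WT hearts (2.65% of all tested genes were called lower) and 0 were higher (2.00%), and after TAC 1 was lower (2.68%) and 0 were higher (2.02%), with 5 members at an unadjusted p under 0.05 in each comparison and 0 higher in edgeR or DESeq2 as well. Between IRS2KO and WT hearts 0 members were called in sham or TAC hearts by limma, edgeR or DESeq2, as against 0.0% of all tested genes by limma, and 1 member in each had an unadjusted p under 0.05, Rps2 at 0.31 in sham hearts and Rpl3l in TAC hearts. No member's response to TAC differed between genotypes by these 3 tools (0.0365% of all genes higher and 0.073% lower for IRS1KO minus WT, 0.0% for IRS2KO minus WT, and 0.263% and 0.146% for IRS1KO minus IRS2KO), and the members with an unadjusted p under 0.05 in limma numbered 0, 0 and 1. The one was Rps4l, whose response was 0.58 higher on the log2 scale in IRS1KO than in IRS2KO hearts. For Rpl3l the response differed by -0.85 ± 0.54 between IRS1KO and WT and by -0.65 ± 0.54 between IRS2KO and WT hearts (SE; adjusted p = 0.65 and 0.95, limma).

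The 3 members that were lower in IRS1KO sham hearts were Rps4l, annotated as a pseudogene, Rps13 and Rps7. Rps4l (chr6:148354656-148355598, plus strand) had 115, 134 and 154 normalized counts in IRS1KO sham hearts against 194, 197 and 269 in WT sham hearts, without overlap, a log2 difference of -0.68 ± 0.14 (SE; adjusted p = 0.0024, limma). Rps13 (chr7:116331505-116334195, minus strand) had 1209, 1364 and 1615 in IRS1KO sham against 1664, 1832 and 1945 in WT sham hearts, also without overlap, a difference of -0.40 ± 0.08 (adjusted p = 0.0016, limma). Rps7 (chr12:28630854-28635953, minus strand), which can bind Mdm2, had 1393, 1495 and 1871 in IRS1KO sham against 1825, 1913 and 2239 in WT sham hearts, a difference of -0.35 ± 0.10 (adjusted p = 0.028, limma) with 1 library in the WT range. The groups did not overlap, with the IRS1KO libraries lower, for 2 of the 79 tested members, against 3.45% of all tested genes. Rps4l and Rps13 passed under each alternative tried, whereas Rps7 lost its call without WT sham replicate 1, 2 or 5, without IRS1KO sham replicate 2, 3, 4 or 6 (differences of -0.35 to -0.31), and under other scalings (quantile, -0.27, and the same total per library, -0.26). Single genes of the marker lists moved in the same comparison. Acta2, 1 of 2 tested smooth muscle markers, and Nppa, 1 of 2 tested atrial markers, were higher in IRS1KO sham hearts. Pdgfra, 1 of 6 fibroblast markers, was lower, and the other genes of these 3 lists were not called. The smooth muscle list summed to 4898, 6437 and 7080 normalized counts (lowest, median, highest) in IRS1KO sham against 2259, 2646 and 3271 in WT sham hearts. The atrial list summed to 3142, 4184 and 4960 against 417, 652 and 888, and neither list overlapped. The median log2 difference of the 2 tested atrial markers was 1.02. Only Nppa of them was called, so the atrial sum does not speak for the whole list. After TAC, Acta2, Nppa and Tnni2 were higher in IRS1KO than in WT hearts, each 1 of 2 tested markers of its list. Dcn, 1 of 6 fibroblast markers, was lower. The part of cell types in the differences between genotypes was not tested.

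**Figure D5:**
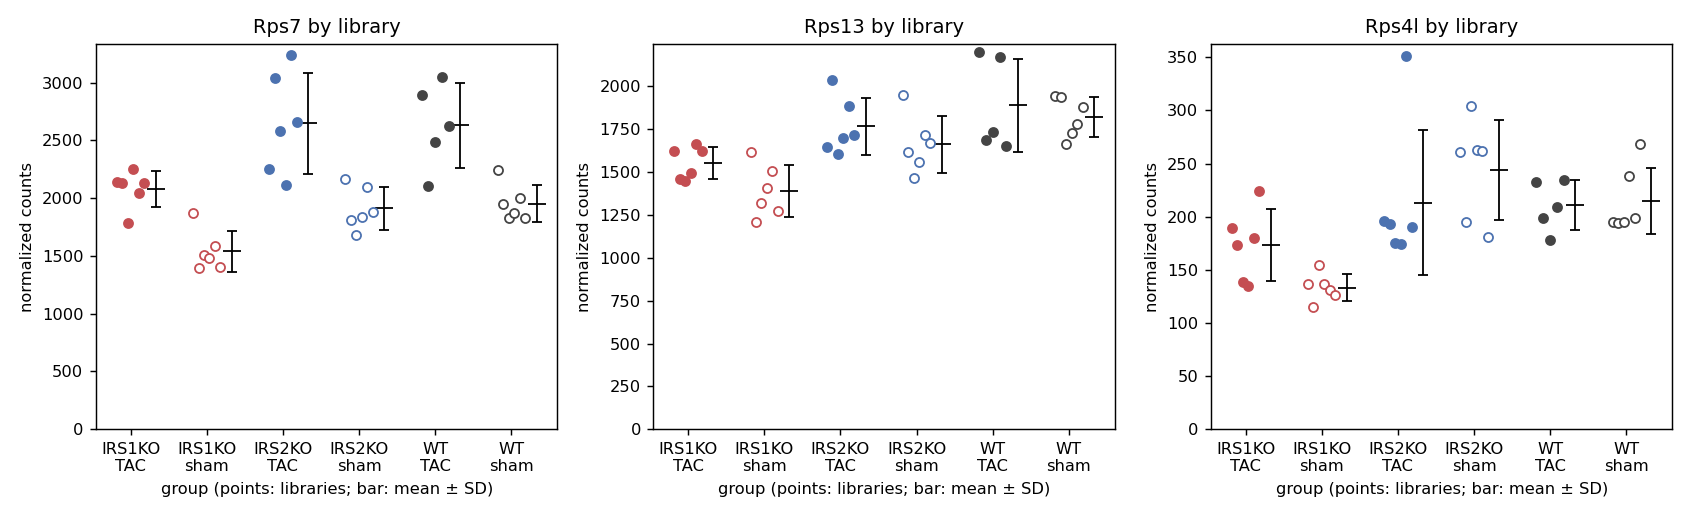
Normalized counts of Rps7, Rps13 and Rps4l in each library by group, with the mean and SD. IRS1KO sham hearts have the lowest group mean in each panel, at 1540, 1388 and 133, and a single IRS2KO TAC library of Rps4l stands at 351.

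Against IRS2KO sham hearts the same 3 genes were lower in IRS1KO sham hearts (4.64% of all tested genes), Rps4l by -0.85 (adjusted p = 0.0001), Rps7 by -0.31 (adjusted p = 0.036) and Rps13 by -0.26 (adjusted p = 0.040, limma), and 0 were higher (3.67%), also in edgeR, while DESeq2 called 1, Rplp0. The comparison uses the same IRS1KO libraries. The calls of Rps7 and Rps13 in it were lost in edgeR (adjusted p = 0.051 and 0.066). Both were also lost without IRS1KO sham replicate 2, 3, 4 or 6 and without IRS2KO sham replicate 1, 5 or 6, and that of Rps13 without IRS2KO sham replicate 2 (differences of -0.32 to -0.28 for Rps7 and -0.27 to -0.21 for Rps13). After TAC, Rps7 had 1784, 2128 and 2250 in IRS1KO hearts against 2891, 2105, 2487, 3046 and 2625 in WT hearts, a difference of -0.33 ± 0.10 (adjusted p = 0.049, limma). This call was lost without WT TAC replicate 1, 5 or 6 and without IRS1KO TAC replicate 1, 2, 3, 4 or 6 (-0.36 to -0.28). IRS1KO against IRS2KO TAC hearts gave 0 members either way in limma (1.08% of all genes higher, 1.28% lower), with 2 at an unadjusted p under 0.05, and Rps7 was lower in edgeR and DESeq2.

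Ribosomal proteins with other kinds of symbol were kept as a list of 7. After TAC, 5 rose in IRS1KO and 6 each in IRS2KO and WT hearts, 0 fell, and the medians were 0.56, 0.42 and 0.40 on the log2 scale. Of all tested genes 32.4, 31.3 and 28.3% were called higher in IRS1KO, IRS2KO and WT hearts, and 31.7, 31.1 and 26.6% lower. These shares also stand beside the counts of the lists below. Rpl22l1, the paralog of Rpl22, rose by 1.08, 0.78 and 0.81 in IRS1KO, IRS2KO and WT hearts, where Rpl22 itself had 0.29, 0.16 and 0.29. Rack1, a scaffold on the small-subunit head, rose by 0.61, 0.61 and 0.57, and Fau, made as a fusion with a ubiquitin-like protein, by 0.38, 0.42 and 0.40. The largest genotype difference in the list was that of Rps3a1, with 3689 ± 502 normalized counts in IRS1KO sham against 1429 ± 94.2 in WT sham hearts (SD, n = 6 each), a log2 difference of 1.36 ± 0.09 (SE; adjusted p = 2.7e-13, limma). After TAC it had 4699 ± 257 in IRS1KO against 1827 ± 287 in WT hearts (SD, n = 6 and 5), a difference of 1.38 ± 0.10 (adjusted p = 8.2e-13, limma). Between IRS2KO and WT hearts it differed by -0.02 in sham and 0.02 in TAC hearts, which did not pass, and after TAC it rose by 0.36, 0.38 and 0.34 in IRS1KO, IRS2KO and WT hearts. For Rps3a1 too, the floxed line and the deletion cannot be told apart in IRS1KO against WT hearts. The counting of reads that map to several places is not stated, and its part in this difference was not tested.

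Of 14 other genes with TOP mRNAs, 9 rose in IRS1KO, 9 in IRS2KO and 8 in WT hearts, and 1, Eif3f, fell in IRS1KO hearts, with medians of 0.35, 0.33 and 0.39. The elongation factor gene Eef1a1 rose by 1.36, 1.05 and 1.13 in IRS1KO, IRS2KO and WT hearts. The poly(A)-binding protein gene Pabpc1 rose by 1.10, 1.06 and 1.01 in the same order. These rises were larger than those of any member but Rpl3 and, for Pabpc1 in IRS1KO hearts, Rpl13a. Of 11 regulators of TOP translation and mTORC1, 1 rose and 2 fell in IRS1KO, 0 rose and 5 fell in IRS2KO, and 1 rose and 2 fell in WT hearts, with medians of -0.03, -0.12 and -0.11. Eif4ebp1, an mTORC1-controlled inhibitor of cap-dependent translation, had changes of 0.58, 0.22 and 0.43, called in IRS1KO and WT hearts, and in IRS2KO hearts without IRS2KO TAC replicate 4 (0.29). Mtor had changes of -0.11, -0.30 and -0.24, called in IRS2KO and WT hearts. The WT call was lost without WT TAC replicate 1 or 3 or WT sham replicate 2, 4 or 5 (-0.22 to -0.18), and its sign turned to positive in all 3 genotypes when each library was scaled to the same total.

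Among 20 genes of ribosomal RNA synthesis and ribosome assembly, 10 rose and 4 fell in IRS1KO, 12 rose and 2 fell in IRS2KO, and 10 rose and 1 fell in WT hearts (medians 0.21, 0.31 and 0.26). Myc, a transcription factor known to drive ribosome production, rose by 2.16, 1.70 and 1.81 in IRS1KO, IRS2KO and WT hearts. Fbl, the methyltransferase of the nucleolus, rose by 0.55, 0.60 and 0.50, and Npm1, a nucleolar chaperone, by 0.52, 0.46 and 0.54. Polr1a, the largest subunit of RNA polymerase I, fell by 0.52, 0.28 and 0.33 on the log2 scale, though its change in IRS2KO hearts was 0.06 when each library was scaled to the same total.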

How the data were processed

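Stranded mRNA libraries from total RNA of the heart apex were analysed from the authors' table of size-factor-normalized counts per gene (a signal whose steps give whole reads). Reads were aligned and counted with HISAT2 2.0.6, HTSeq 0.7.1 and DESeq2 on GRCm38, per the submitters' processing notes. Annotation release and strand setting are not given in the sources used here. Dividing each library by its smallest value recovered whole reads for 100% of values (tolerance 0.001). Symbols and lengths came from GENCODE vM21, which matched 26904 of 27012 identifiers.

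Genes with a mean of at least 10 (13695) were tested on log2(value + 1) with limma 3.58.1 (trend, robust, 1 mean per group, R 4.3.3), 2-sided, over 12 contrasts at an adjusted p of 0.05, after a check on simulated data. edgeR 4.0.16 and DESeq2 1.42.0 on recovered reads were alternatives. The ratio tests used scipy 1.17.1 with a pseudocount of 1. The labels number the libraries of a group without tying them to animals, so p-values cover the spread between libraries. One member is not reported here. Values were given by rule for Rpl3l, Rpl3, the 8 largest changes of each direction, paralogs, stalk genes, Rpsa and Rps27a, and other genes were named after their values were seen. Members and lists were chosen with earlier results of these data known. Same-number correlations between groups, within and between genotypes, ran from -0.60 to 0.57, with 24 of 51 over 0.1. Libraries were not paired by number in the main tests, and whether the numbers mark shared handling was not settled.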

Additional observations from a re-analysis of the deposited data

Results flagged for a closer look

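In groups of 5 or 6 libraries, 108 groups over 18 quantities were searched for a library whose gap to the nearest other is large for the range of its group. Chance gives about 1 in 20, and the 4 that were found are no more than that share. The share of reads in the members was 1.04% in WT sham replicate 1, against 0.956% in the nearest library. The same library had 2416 normalized counts of Rps2, against 2061 in the nearest. Rpl13a stood at 78.6 in IRS1KO sham replicate 1, with the nearest library at 57.0. Rps4l stood at 351 in IRS2KO TAC replicate 5, with the nearest at 196. Without that library Rps4l was called lower after TAC in IRS2KO hearts (log2 fold change -0.37, adjusted p = 0.011, limma). With all libraries it had -0.22 and no call (adjusted p = 0.19, limma). The library left out held the highest Rps4l value of its group, so the call without it cannot decide whether Rps4l fell.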

How the results depend on the processing

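Alternatives were another pseudocount, filter or scaling (quantile, same total per library, same total outside the mitochondrial genome), library weights, only the groups of a contrast, edgeR, DESeq2, a replicate block, and each library left out. After seeing the data, a fit without WT TAC replicate 2 and IRS2KO TAC replicates 1 and 4 was added. After TAC, the count of members called higher, the fall of Rpl3l and the rise of Rpl3 kept their direction and call under every alternative. With 1 library left out, 69 to 72 members were higher in IRS1KO, 66 to 71 in IRS2KO and 64 to 71 in WT hearts, and the count lower was 1 to 2 in IRS2KO hearts. With the replicate block 72, 71 and 70 were higher, and the ratio of Rpl3l to Rpl3 in WT hearts had the difference -3.25 (exact permutation p = 0.0625, the smallest that 5 pairs allow). It otherwise moved counts in IRS1KO against other genotypes as given next.

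Counts between genotypes were small and less firm. In IRS1KO against WT sham hearts 6 were lower with library weights. After TAC, 2 were lower in DESeq2, edgeR, the block and without the 3 libraries, 3 lower and 1 higher with weights, 0 lower without a filter, with only these groups, and with the quantile and both total scalings, and 0 to 3 with 1 library left out. IRS1KO against IRS2KO sham hearts had 1 higher in DESeq2, with weights, with only these groups and without the 3 libraries, 1 lower in edgeR, without a filter, and with the quantile and total scalings, and 1 to 4 lower with 1 library left out. After TAC 1 was lower in DESeq2, edgeR, weights, the block and without the 3 libraries, and 0 to 1 with 1 library left out. IRS2KO against WT TAC hearts had 1 lower without the 3 libraries, when the ratio differed by -1.57. The ratio differed by -1.58 to -0.87 in IRS1KO against WT TAC hearts with 1 library left out. In IRS1KO against IRS2KO hearts it differed by -0.087 to 0.011 (sham) and -0.70 to 0.15 (TAC) with 1 library left out, and by 0.70 in TAC hearts without the 3 libraries.

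Signs of the following log2 fold changes turned. With the same total per library, outside the mitochondrial genome where given second, Rps2 in IRS1KO hearts was 0.29 and 0.12, Rps27 in IRS1KO 0.30 and 0.13, Rps27 in IRS2KO 0.33 and 0.15, Rps4l in WT 0.23 and 0.11, Rps4l in IRS2KO 0.12, Mtor in IRS1KO 0.19 and 0.023, Mtor in IRS2KO 0.040, Mtor in WT 0.017, Eif4e in WT 0.0018 and Polr1a in IRS2KO 0.056. Under quantile scaling Rps2 in IRS1KO was 0.0058 and Rps27 in IRS2KO 0.064. With weights Rps2 in IRS1KO was 0.013, Rps27 0.069 in IRS1KO and 0.060 in IRS2KO, and Rps4l in WT 0.020. Rps27 in IRS2KO was 0.0019 in edgeR, 5.0e-05 in DESeq2 and 0.091 without the 3 libraries. Rps29 in IRS1KO was -0.022 in edgeR and -8.1e-05 in DESeq2. With 1 library left out the ranges were -0.016 to 0.087 for Rps13 in WT, -0.060 to 0.028 and -0.074 to 0.095 for Rps2 in IRS1KO and IRS2KO, -0.043 to 0.074 and -0.056 to 0.050 for Rps27, -0.020 to 0.078 and -0.034 to 0.060 for Rps29 in the same genotypes, and -0.065 to 0.042 for Rps4l in WT. The cause was not tested. Rpl24, Rpl32l and Rpl39l had means under 10 normalized counts and were not tested.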

Other observations

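In each genotype the sham library numbered 1 had the highest share of reads in the ribosomal protein genes of its group: 1.22% in IRS1KO, 1.06% in IRS2KO and 1.04% in WT sham hearts, against group means of 0.995, 0.928 and 0.951%. Whether number 1 marks a shared day or batch is not stated in the labels.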
